A study of Mus musculus with 6 samples.

Results

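Interferon response genes are the genes that cells switch on when an interferon binds its receptor. The 46 genes described here were chosen by symbol, from a list drawn up with earlier results of these data known, and all 46 have a row among the 30803 rows of each deposited table. The data are poly(A) RNA-seq of bone marrow from WT mice at 5 months of age, in which cells named as hematopoietic stem cells were sorted into an MHCII-hi and an MHCII-lo group with 3 libraries each (n = 3 per group throughout). Both groups carry the word control in their names, no agent or allele is named, and the mice were background-matched and kept free of specific pathogens. The sort markers are not named. Whether each library is a different mouse is also not stated, so the p-values speak for the spread among these 6 libraries, part of which may be technical.

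Values are in FPKM, a read level corrected for transcript length and library size. FPKM summed to between 333347 and 333530 in MHCII-hi libraries and between 305934 and 306945 in MHCII-lo libraries. Immunoglobulin segments held 8.26% to 8.34% of it in MHCII-hi and 0.392% to 0.458% in MHCII-lo, and mitochondrial transcripts held 12.5% in MHCII-hi and 8.81% to 8.96% in MHCII-lo. The stem cell label was checked on 15 markers, of which 7 (Slamf1, Procr, Mecom, Fgd5, Hoxb5, Ctnnal1 and Tek) had a mean under 1 FPKM. Both groups held transcripts of other blood cells. The 13 neutrophil markers summed to 22996 to 23303 FPKM in MHCII-hi and 16799 to 16844 FPKM in MHCII-lo.

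Type I interferons signal through the receptor pair Ifnar1 and Ifnar2 and the kinases Jak1 and Tyk2 to a complex that includes Stat2 and Irf9 and binds the interferon-stimulated response element (ISRE). Interferon gamma signals through Ifngr1 and Ifngr2 and the kinases Jak1 and Jak2, and genes that respond to it often carry the gamma-activated sequence (GAS). The induced genes include OAS enzymes, which sense double-stranded RNA, IFIT proteins, which bind viral RNA, large GTPases of the MX, GBP and IRG families, which act on viruses and on vacuoles of intracellular microbes, and IFITM proteins, which hinder viral entry. Hematopoietic stem cells are known for a constant low expression of some of these genes, and interferons can bring resting stem cells into cycle.

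Of the 46 genes, 44 had a mean of at least 1 FPKM and were tested. In MHCII-hi, 23 of the 44 were higher, 7 were lower and 14 did not pass (limma, adjusted p under 0.05). Over all 12295 tested genes, 27.2% were called higher, 40.5% lower and 67.8% in either direction. These shares are also the background for the family counts below. The median change of the 44 genes was 0.16 on the log2(FPKM + 1) scale, against -0.08 for all tested genes. In 33 of the 44 genes the libraries of the groups did not overlap, which was also the case in 72.8% of all tested genes. Only Oas2 rose by 1 or more on the log2(FPKM + 1) scale, as did 3.69% of all tested genes. The added 1 shrinks changes at low FPKM. The ratio of means was 2.13 for Oas2, 2.09 for Ddx58, 2.03 for Socs1 and 2.26 for Iigp1, which was not tested. When tested against a change of 1.2-fold, 11 genes were called higher (25%) and 2 lower (4.55%). Of all genes, 13% were called higher and 17.3% lower in that test. Those 11 were Oas2, Oas3, Oasl2, Gbp4, Ifitm1, Irf1, Irf2, Irf7, Ddx58, Rtp4 and Sp100, and those 2 were Gbp3 and Ifi47.

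The split between higher and lower moved with the scaling. With every library scaled to an equal total, 20 of the 44 genes were higher and 10 lower, against 20.6% and 50.8% of all genes. With median-of-ratios scaling, 30 were higher and 6 lower, against 33.3% and 32.5% of all genes. Without immunoglobulin and mitochondrial transcripts, whose shares differed between the groups, 29 were higher and 7 lower, against 30.7% and 35.2% of all genes.

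**Figure D1:**
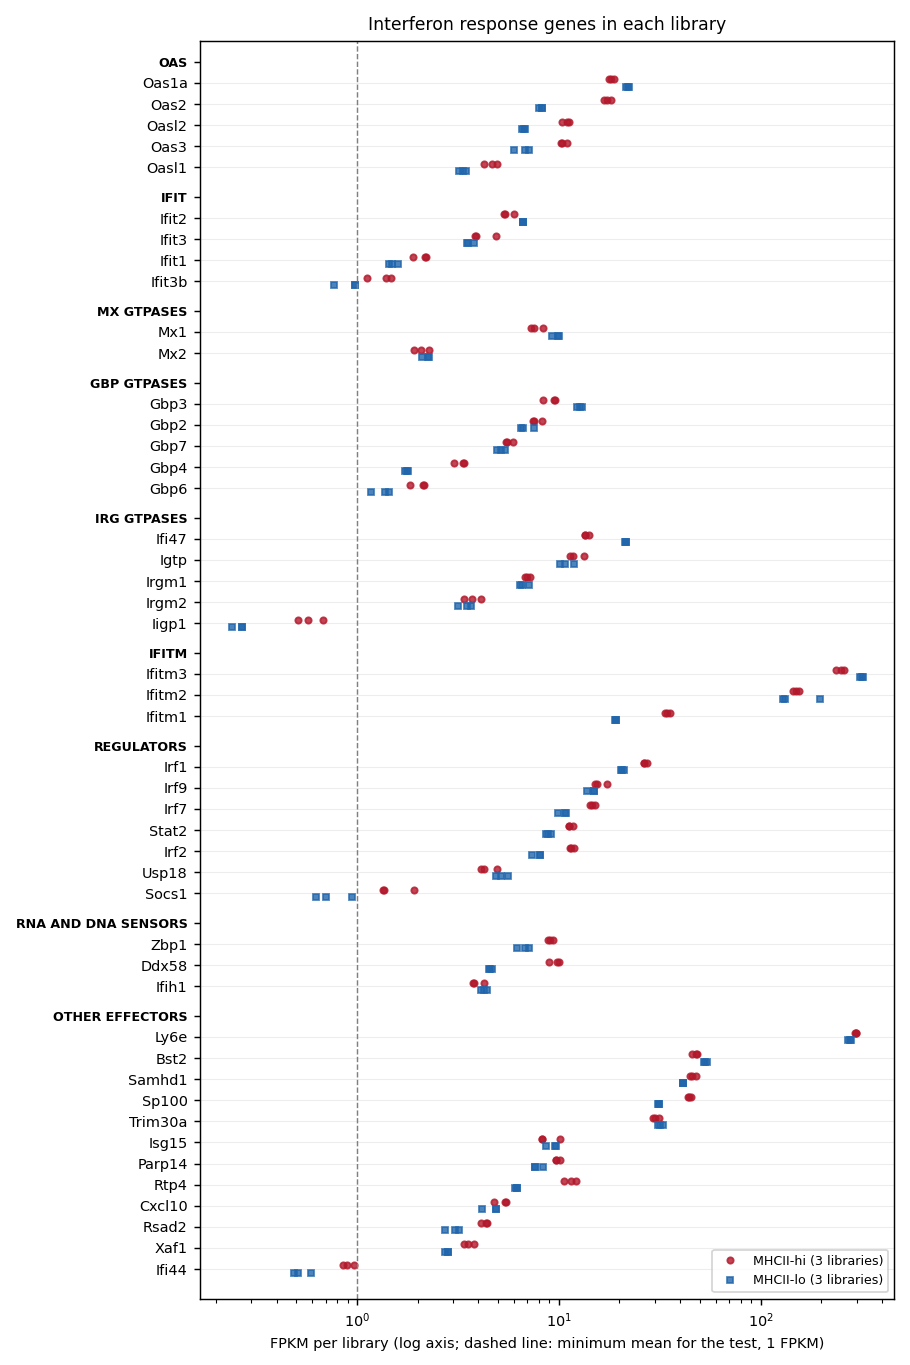
FPKM of each of the 46 genes in each library (log axis), by family, with MHCII-hi as red circles above MHCII-lo as blue squares and 3 points per group. Ifitm3 and Ly6e lie near 300 FPKM while Iigp1 and Ifi44 lie left of the dashed line at 1 FPKM, and the points of one group lie close together in most rows.

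Levels differed between genes far more than between groups. Ifitm2, Ifitm3 and Ly6e together gave 57.6% to 58.2% of the summed FPKM of the 46 genes in MHCII-hi libraries and 62% to 64.6% in MHCII-lo libraries. The sum over all 46 genes was 1193 to 1216 FPKM in MHCII-hi and 1153 to 1238 FPKM in MHCII-lo, so the groups overlapped. Without these 3 genes it was 503 to 508 FPKM in MHCII-hi and 437 to 438 FPKM in MHCII-lo. The coefficient of variation between the libraries of a group had a median of 5.77% in MHCII-hi and 4.44% in MHCII-lo over the 46 genes.

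Among the OAS genes, 4 of 5 were higher in MHCII-hi and 1 was lower, against 27.2% and 40.5% of all tested genes. Their median change was 0.60 on the log2(FPKM + 1) scale. OAS enzymes make 2-5A, a short RNA messenger that activates RNase L, when they bind double-stranded RNA, and the OAS-like genes encode relatives. Oas2 (protein-coding, GRCm38 chromosome 5, 120730333 to 120749853, minus strand) had 17.32, 18.15 and 16.72 FPKM in MHCII-hi libraries, against 7.96, 8.26 and 8.29 FPKM in MHCII-lo libraries. Every MHCII-hi library was thus far above every MHCII-lo library, and the change was 1.0 ± 0.04 (SE) on the log2(FPKM + 1) scale (limma adjusted p = 1.49e-06). Its neighbour Oas3 (chromosome 5, 120753098 to 120777661, minus strand), whose product binds long double-stranded RNA, had 10.43, 11 and 10.27 FPKM in MHCII-hi and 6.02, 6.83 and 7.13 FPKM in MHCII-lo. Its groups did not overlap either, and its adjusted p was 0.000151.

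Oasl2 had 11.24, 11.02 and 10.40 FPKM in MHCII-hi, against 6.58, 6.79 and 6.73 FPKM in MHCII-lo. Oasl1, which in the mouse restrains translation of the regulator Irf7, had 4.26, 4.93 and 4.69 FPKM in MHCII-hi and 3.48, 3.2 and 3.35 FPKM in MHCII-lo. Both rose, by 0.63 and 0.37 on the log2(FPKM + 1) scale. Oas1a (chromosome 5, 120896256 to 120907521, minus strand), the most abundant of the 5, went the other way. It had 17.85, 18.15 and 18.69 FPKM in MHCII-hi and 21.56, 22.37 and 22.11 FPKM in MHCII-lo, with a change of -0.26 ± 0.03 (SE) on the log2(FPKM + 1) scale (limma adjusted p = 0.000246). Of the 50-base stretches of its longest transcript, 57.6% also occur in Oas1g, so the level of Oas1a is uncertain; Oas1g stood at 5.60 FPKM in both groups.

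The promoter windows of Oas3, which rose, and Oas1a, which fell, are shown because both hold the ISRE core, searched on both strands as GAAANNGAAA. Capitals mark the core, with overlapping copies merged. The stretches are from RefSeq (GRCm38.p6), both on the minus strand, at chr5:120777705-120777754 for Oas3 and chr5:120907510-120907565 for Oas1a.
Oas3: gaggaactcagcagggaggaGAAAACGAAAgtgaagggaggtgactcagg
Oas1a: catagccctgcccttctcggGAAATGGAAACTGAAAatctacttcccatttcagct
The core starts 75 bases before the annotated start in Oas3 and 20 bases before it in Oas1a. The windows of Oasl1 and Oasl2, which rose, hold no match to these letters.

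The IFIT genes, which stood at low FPKM, did not all move one way. Of 4 genes, 2 were higher, 1 was lower and 1 did not pass, with a median change of 0.23 on the log2(FPKM + 1) scale. Because the added 1 shrinks changes at low FPKM, ratios of means are given too. They were 1.38 for Ifit1, 1.46 for Ifit3b, 1.16 for Ifit3 and 0.84 for Ifit2. Ifit1, which binds viral RNA that lacks the cap methylation of host RNA, had 1.89, 2.18 and 2.20 FPKM in MHCII-hi and 1.5, 1.45 and 1.59 FPKM in MHCII-lo (limma adjusted p = 0.00732). Ifit2, the most abundant of the 4, had 6.0, 5.35 and 5.43 FPKM in MHCII-hi and 6.69, 6.67 and 6.69 FPKM in MHCII-lo. It was lower in every MHCII-hi library (limma adjusted p = 0.00516), and it did not pass after correction for transcript length and GC content (adjusted p = 0.168).

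Ifit3, a partner that stabilises Ifit1 in humans, and its near copy Ifit3b share 51.2% of the 50-base stretches of the Ifit3 transcript. Ifit3 had 3.84, 4.87 and 3.89 FPKM in MHCII-hi and 3.52, 3.54 and 3.81 FPKM in MHCII-lo and did not pass (limma adjusted p = 0.121). Ifit3b had 1.47, 1.40 and 1.12 FPKM in MHCII-hi and 0.98, 0.98 and 0.77 FPKM in MHCII-lo and passed (limma adjusted p = 0.0322). The Ifit3b call was lost when any library other than MHCII-hi replicate 3 was left out (adjusted p between 0.0518 and 0.104). Summed, the pair had 5.31, 6.27 and 5.01 FPKM in MHCII-hi and 4.50, 4.52 and 4.58 FPKM in MHCII-lo, a change of 0.23 ± 0.07 (SE) on the log2(FPKM + 1) scale (limma adjusted p = 0.0258).

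The likeness of this pair extends to the promoter. The 84 bases around the ISRE cores are identical in Ifit3 (chr19:34583353-34583436, plus strand) and Ifit3b (chr19:34607749-34607832, plus strand), while Ifit1 (chr19:34640765-34640833, plus strand) holds its own pair of cores. Capitals again mark the core, here read from the opposite strand as TTTCNNTTTC.
Ifit3 and Ifit3b: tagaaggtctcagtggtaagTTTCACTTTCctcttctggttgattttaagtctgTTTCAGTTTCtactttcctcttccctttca
Ifit1: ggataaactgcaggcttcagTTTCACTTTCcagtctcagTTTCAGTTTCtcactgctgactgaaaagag

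**Figure D2:**
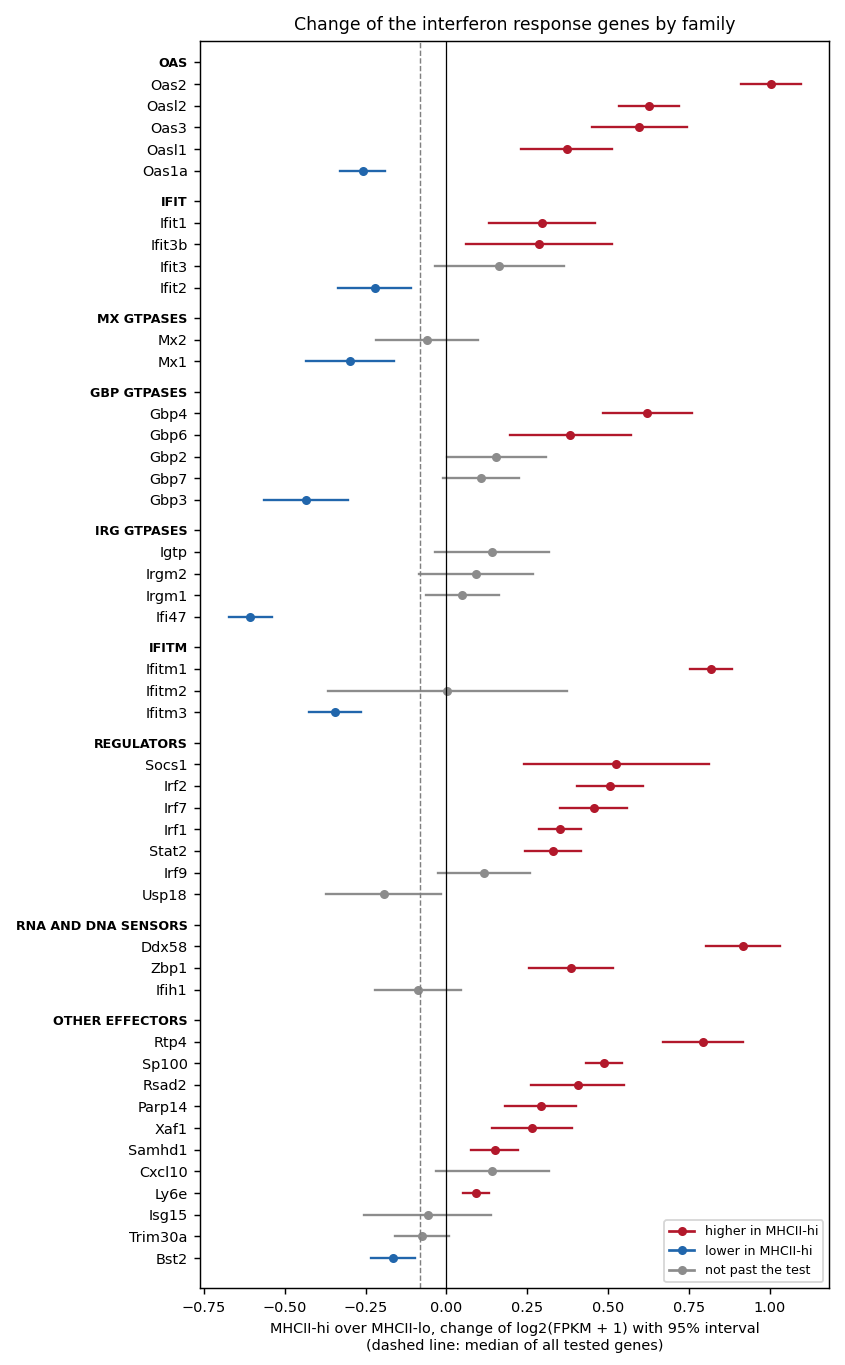
Change of each of the 44 tested genes in MHCII-hi over MHCII-lo on the log2(FPKM + 1) scale, by family, with its 95% interval (red higher, blue lower, grey not past the test). Every family with 3 or more tested genes holds genes on both sides of 0, and the dashed line is the median of all tested genes at -0.08.

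Among the 12 GTPase genes, 2 were higher, 3 were lower, 6 did not pass and Iigp1 was too low to be tested. The shares among all tested genes were 27.2% higher and 40.5% lower. The median change of the 11 tested was 0.09 on the log2(FPKM + 1) scale. Mx1, a dynamin-like GTPase that blocks influenza virus, had 8.38, 7.57 and 7.31 FPKM in MHCII-hi and 10.05, 9.24 and 9.95 FPKM in MHCII-lo. It fell by 0.30 on the log2(FPKM + 1) scale, with groups that did not overlap (limma adjusted p = 0.00314). Mx2, which the annotation gives as a polymorphic pseudogene, stood at 2.27, 1.91 and 2.07 FPKM in MHCII-hi and 2.10, 2.28 and 2.25 FPKM in MHCII-lo, with overlapping groups.

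The guanylate-binding proteins, which coat and break the vacuoles of intracellular microbes, moved both ways. Gbp4 (chromosome 5, 105115767 to 105139586, minus strand) had 3.03, 3.36 and 3.41 FPKM in MHCII-hi, against 1.73, 1.78 and 1.80 FPKM in MHCII-lo. Gbp6 had 2.16, 1.84 and 2.13 FPKM in MHCII-hi and 1.38, 1.44 and 1.18 FPKM in MHCII-lo. Both rose, with adjusted p-values of 9.19e-05 and 0.00420 in limma, and 59.7% of the 50-base stretches of Gbp6 occur in other genes, so its level is uncertain.

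Gbp3 (chromosome 3, 142560026 to 142573209, plus strand), the most abundant of the 5, had 8.36, 9.51 and 9.53 FPKM in MHCII-hi and 12.27, 12.72 and 13.01 FPKM in MHCII-lo. All of its MHCII-hi libraries were thus below all of its MHCII-lo libraries, by 0.43 ± 0.05 (SE) on the log2(FPKM + 1) scale (limma adjusted p = 0.000409). Gbp2, at 7.79 ± 0.447 FPKM in MHCII-hi and 6.90 ± 0.570 FPKM in MHCII-lo (SD), and Gbp7, at 5.66 ± 0.253 FPKM in MHCII-hi and 5.19 ± 0.237 FPKM in MHCII-lo, did not pass. Both passed as higher with median-of-ratios scaling and after removal of the trend on length and GC content.

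The GBP genes lie in clusters on separate chromosomes, and the calls differed between the clusters; the comparison was made after the values were seen. On chromosome 5, all 4 tested GBP genes were higher, namely Gbp4, Gbp6 and, outside the 46 genes, Gbp8 and Gbp9. On chromosome 3, none of 4 was higher, Gbp3 was lower and Gbp2, Gbp5 and Gbp7 did not pass. The difference between the clusters was not tested, and the annotated spans of Gbp4, Gbp8 and Gbp9 overlap on one strand, so reads could be split among them. Gbp9 had 6.73, 7.42 and 7.06 FPKM in MHCII-hi and 3.23, 3.54 and 3.43 FPKM in MHCII-lo.

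The immunity-related GTPases (IRG), which interferon gamma induces in mice and which act on the vacuoles of parasites and bacteria, held 1 called gene. Ifi47 (chromosome 11, 49076587 to 49096974, plus strand), the most abundant of the 5, had 14.12, 13.56 and 13.57 FPKM in MHCII-hi, against 21.36, 21.55 and 21.44 FPKM in MHCII-lo. This was the largest decrease among the 44 genes, at -0.61 ± 0.03 (SE) on the log2(FPKM + 1) scale (limma adjusted p = 3.21e-06). Igtp had 11.76, 11.33 and 13.32 FPKM in MHCII-hi and 10.72, 11.85 and 10.14 FPKM in MHCII-lo. Irgm1 and Irgm2, which keep the other IRG proteins off host membranes, averaged 6.997 and 3.75 FPKM in MHCII-hi and 6.73 and 3.45 FPKM in MHCII-lo. The annotated spans of Igtp and Irgm2 overlap, which makes their levels uncertain. These 3 genes had overlapping groups and did not pass, with adjusted p-values between 0.131 and 0.382 in limma. Iigp1 had 0.51, 0.68 and 0.57 FPKM in MHCII-hi and 0.24, 0.27 and 0.27 FPKM in MHCII-lo.

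The promoters of Igtp and Irgm2 are shown because these neighbours, neither of which passed, have nearly the same ISRE stretch, with 2 of 50 bases differing. The stretches lie on the plus strand at chr11:58199502-58199551 for Igtp and chr11:58214893-58214942 for Irgm2, and capitals mark the core.
Igtp: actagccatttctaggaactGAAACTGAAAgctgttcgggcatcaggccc
Irgm2: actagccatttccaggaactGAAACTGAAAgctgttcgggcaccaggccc

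**Figure D3:**
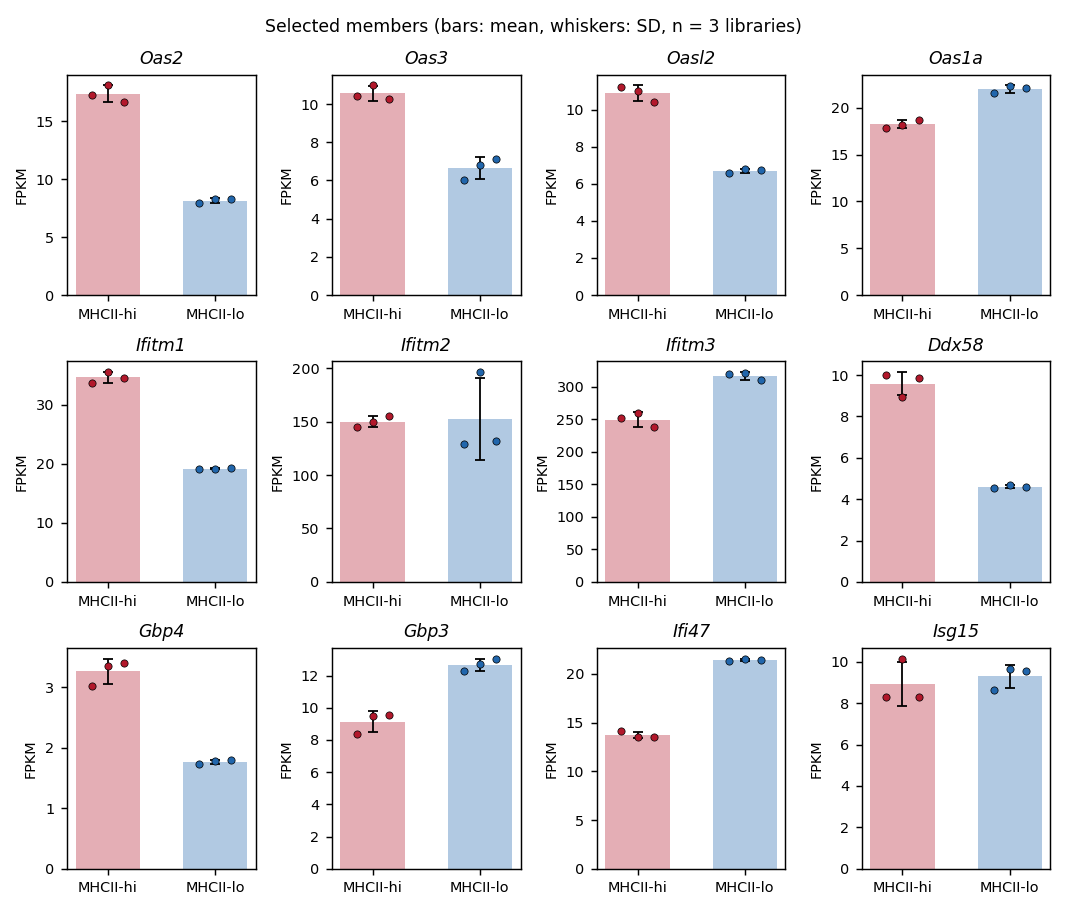
FPKM of 12 genes in linear panels, MHCII-hi left of MHCII-lo, with bars for the mean, whiskers for the SD and points for the 3 libraries. Oas2 and Ddx58 stand at over 2 times their MHCII-lo mean in MHCII-hi, Ifi47 and Gbp3 stand below it, and 1 MHCII-lo library of Ifitm2 at 197 FPKM stands apart from the other MHCII-lo libraries.

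The IFITM genes, which lie beside each other on chromosome 7, gave 1 higher, 1 lower and 1 that did not pass. Ifitm1 (140967221 to 140969825, plus strand) had 33.65, 35.52 and 34.57 FPKM in MHCII-hi, against 19.09, 19.13 and 19.25 FPKM in MHCII-lo. It rose by 0.82 ± 0.03 (SE) on the log2(FPKM + 1) scale, with no overlap between groups (limma adjusted p = 8.19e-07). Ifitm3 (141009586 to 141010770, minus strand), which restricts influenza virus in endosomes, was the most abundant of the 46 genes in MHCII-lo. It had 251.39, 260.09 and 237.69 FPKM in MHCII-hi and 319.41, 321.54 and 310.50 FPKM in MHCII-lo. All MHCII-hi libraries were below all MHCII-lo libraries, with a change of -0.34 ± 0.03 (SE) on the log2(FPKM + 1) scale (limma adjusted p = 0.000118).

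Ifitm2 rested on 1 library. It had 144.67, 149.86 and 155.24 FPKM in MHCII-hi and 129.07, 196.58 and 131.66 FPKM in MHCII-lo, with replicate 2 far above the other MHCII-lo libraries (limma adjusted p = 0.987). Without that library Ifitm2 was higher in MHCII-hi, by 0.20 on the log2(FPKM + 1) scale (limma adjusted p = 0.00339). Of its 50-base stretches, 48.5% occur in other genes, most of them in the annotated gene Gm45717. Ifitm6, outside the 46 genes, had 304.35, 293.85 and 294.32 FPKM in MHCII-hi and 151.05, 145.93 and 152.04 FPKM in MHCII-lo. Neutrophil markers moved in the same comparison, with 9 of 13 higher in MHCII-hi and 3 lower, and their part in the IFITM values was not tested.

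The ISRE stretches of Ifitm3 and Ifitm2, which lie on either side of Ifitm1, are shown because they share the letters of the first core. That core starts 46 bases before the annotated start in Ifitm2 and after the start in Ifitm3. The stretches lie on the minus strand at chr7:141010696-141010762 for Ifitm3 and chr7:140955978-140956027 for Ifitm2, while the window of Ifitm1, which rose, holds no match to these letters.
Ifitm3: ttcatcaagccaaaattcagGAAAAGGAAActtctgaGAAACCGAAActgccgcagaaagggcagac
Ifitm2: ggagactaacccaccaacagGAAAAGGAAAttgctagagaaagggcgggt

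**Figure D4:**
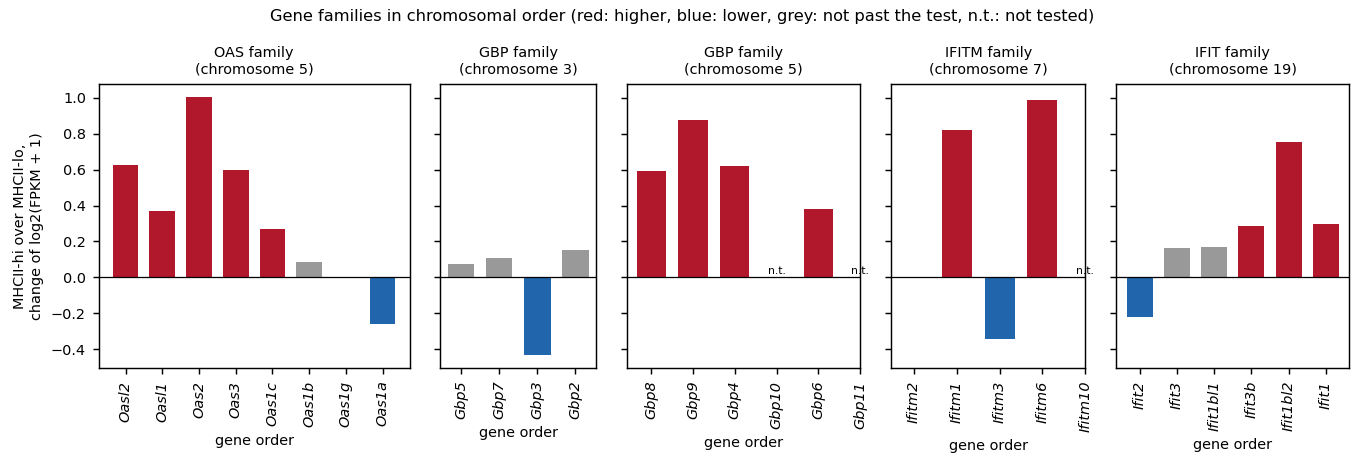
Change on the log2(FPKM + 1) scale, MHCII-hi over MHCII-lo, of the genes of 4 families in their order along the chromosome, including relatives outside the 46 genes (n.t. means not tested). In the OAS family Oas2 stands at 1.0 and Oas1a at -0.26, and all 4 tested GBP genes of chromosome 5 are above 0.

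Of the 7 regulators, 5 were higher in MHCII-hi, none was lower and 2 did not pass. Among all tested genes, 27.2% were higher and 40.5% lower. The median change of the regulators was 0.35 on the log2(FPKM + 1) scale. Irf1, a factor that interferon gamma induces, had 26.32, 26.45 and 27.38 FPKM in MHCII-hi and 20.66, 21.06 and 20.45 FPKM in MHCII-lo (limma adjusted p = 3.80e-05). Irf2, which competes with Irf1 and which stem cells need to stay quiescent under type I interferon in mice, had 11.46, 11.86 and 11.42 FPKM in MHCII-hi and 8.10, 7.40 and 8.07 FPKM in MHCII-lo (limma adjusted p = 5.66e-05). Irf7, which amplifies type I interferon, had 14.68, 14.35 and 15.17 FPKM in MHCII-hi and 10.86, 9.87 and 10.69 FPKM in MHCII-lo (limma adjusted p = 0.000105). In each of these genes the groups did not overlap, and the ratio of means lay between 1.29 for Irf1 and 1.47 for Irf2.

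Socs1, which shuts off the receptor kinases, had 1.91, 1.35 and 1.36 FPKM in MHCII-hi and 0.63, 0.70 and 0.95 FPKM in MHCII-lo. It rose by 0.53 ± 0.12 (SE) on the log2(FPKM + 1) scale (limma adjusted p = 0.00697). Stat2 rose as well, with a mean of 11.4 ± 0.335 FPKM in MHCII-hi and 8.88 ± 0.235 FPKM in MHCII-lo (SD). Its partner Irf9 had 17.37, 15.42 and 15.06 FPKM in MHCII-hi and 14.98, 13.88 and 15.01 FPKM in MHCII-lo. Irf9 did not pass (limma adjusted p = 0.124), while it was called higher under 3 of 19 alternatives. Usp18, which removes ISG15 from proteins and dampens the type I receptor, had 4.97, 4.12 and 4.25 FPKM in MHCII-hi and 5.61, 4.89 and 5.17 FPKM in MHCII-lo. Its groups overlapped and it did not pass (limma adjusted p = 0.0534), while it was called lower with every library scaled to an equal total (adjusted p = 0.00987) and without MHCII-hi replicate 1 (adjusted p = 0.0127).

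Of the 3 sensors, Ddx58 and Zbp1 were higher and Ifih1 did not pass. Ddx58 (RIG-I, chromosome 4), which detects short double-stranded RNA with a triphosphate end, had 9.98, 8.94 and 9.84 FPKM in MHCII-hi, against 4.53, 4.68 and 4.58 FPKM in MHCII-lo. The ratio of means was 2.09, the groups lay far apart, and the adjusted p was 5.93e-06 in limma. Ifih1 (MDA5), which detects long double-stranded RNA, had 4.27, 3.80 and 3.78 FPKM in MHCII-hi and 4.26, 4.41 and 4.10 FPKM in MHCII-lo (limma adjusted p = 0.200). Zbp1, a sensor of Z-form nucleic acids that can start necroptosis, had 9.42, 8.82 and 9.01 FPKM in MHCII-hi and 6.82, 6.20 and 7.15 FPKM in MHCII-lo.

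Of the 12 other effectors, 7 were higher, 1 was lower, 3 did not pass and Ifi44 was too low to be tested. The shares among all tested genes were 27.2% higher and 40.5% lower. Rtp4, a chaperone of receptors that also restricts viruses, had 10.61, 12.22 and 11.49 FPKM in MHCII-hi and 6.21, 6.22 and 6.06 FPKM in MHCII-lo. Sp100, a component of PML nuclear bodies, had 43.53, 44.01 and 45.07 FPKM in MHCII-hi and 31.39, 31.37 and 30.91 FPKM in MHCII-lo. Rsad2 (viperin), which makes a chain-terminating nucleotide, had 4.10, 4.42 and 4.38 FPKM in MHCII-hi and 3.07, 2.74 and 3.2 FPKM in MHCII-lo. The groups did not overlap in any of the 3, with adjusted p-values of 1.72e-05, 3.62e-06 and 0.000893 in limma.

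Parp14, which adds ADP-ribose to proteins, had 9.68, 9.64 and 10.16 FPKM in MHCII-hi and 8.34, 7.61 and 7.59 FPKM in MHCII-lo. It rose by 0.29 on the log2(FPKM + 1) scale, and Xaf1, which promotes cell death, by 0.27. Samhd1, which degrades the nucleotides that retroviruses need, rose by 0.15, and it did not pass with every library scaled to an equal total. Ly6e, a surface protein that blocks coronavirus fusion, had 296.93, 297.27 and 294.36 FPKM in MHCII-hi and 278.99, 282.18 and 272.51 FPKM in MHCII-lo. Its rise of 0.09 on the log2(FPKM + 1) scale (limma adjusted p = 0.00238) turned to -0.03 under that scaling and no longer passed.

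Bst2 (tetherin), which holds budding virus at the cell surface, had 47.73, 45.87 and 48.45 FPKM in MHCII-hi and 53.08, 54.28 and 52.20 FPKM in MHCII-lo. It was the single effector called lower (limma adjusted p = 0.00185), and the call was lost with median-of-ratios scaling (adjusted p = 0.0626). Isg15, which encodes a ubiquitin-like protein, had 8.31, 10.14 and 8.27 FPKM in MHCII-hi and 8.63, 9.66 and 9.57 FPKM in MHCII-lo, with overlapping groups (limma adjusted p = 0.554). Cxcl10, a chemokine for T cells, at 5.23 ± 0.395 FPKM in MHCII-hi and 4.65 ± 0.416 FPKM in MHCII-lo (SD), and Trim30a, at 30.2 ± 1.004 FPKM in MHCII-hi and 31.9 ± 0.983 FPKM in MHCII-lo, also overlapped. Ifi44 had 0.85, 0.97 and 0.89 FPKM in MHCII-hi and 0.59, 0.51 and 0.49 FPKM in MHCII-lo.

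The Isg15 stretch at chr4:156200855-156200916 (minus strand) holds 3 overlapping ISRE cores, the most in any promoter window of the 35 matched genes. It is shown beside the Ddx58 stretch at chr4:40239794-40239843 (minus strand) because Ddx58 rose and Isg15 did not pass.
Isg15: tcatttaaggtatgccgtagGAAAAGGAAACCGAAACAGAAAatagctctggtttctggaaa
Ddx58: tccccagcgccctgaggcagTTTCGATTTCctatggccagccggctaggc

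An ISRE core was present in 23 of the 35 matched genes (65.7%), against 3.99% of all 27025 genes with a promoter sequence. Each promoter window was 300 bases long, and a gene with several windows counted if any of them held the core. The GAS core TTCNNNGAA was present in 10 of 35 (28.6%), against 9.55% of all genes, and the motifs overlapped in 2 genes, Bst2 and Ifitm3. By call, the ISRE core was present in 8 of 16 genes higher in MHCII-hi, 4 of 6 lower and 11 of 12 that did not pass. The GAS core was present in 3 of the 16 higher, 4 of the 6 lower and 3 of the 12 that did not pass. No promoter was matched for Oas2, Mx1, Mx2, Gbp4, Gbp6, Iigp1, Usp18, Zbp1, Rtp4, Parp14 and Ly6e. A match describes letters, not binding, and the difference between these shares was not tested.

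Of the 116 other genes of the pathway, 103 had a row and 89 were tested. Of these 89, 40 were higher (44.9%), 21 were lower (23.6%) and 28 did not pass. Over all tested genes, 27.2% were higher and 40.5% lower. With every library scaled to an equal total, 31 were higher (34.8%) and 33 lower (37.1%), against 20.6% and 50.8% of all genes. Of 20 listed interferon ligands only 7 had a row, and the 13 others, which make up all the pathway genes without one, were not analysed here. The type I ligands with a row were at 0 in nearly all libraries: Ifnb1, Ifna2, Ifna11, Ifnab and Ifnk were each above 0 in a single library, at 0.11 FPKM or less, and Ifna13 was at 0 throughout. Interferon gamma was present. Ifng had 10.14, 9.51 and 11.35 FPKM in MHCII-hi and 6.87, 7.30 and 7.77 FPKM in MHCII-lo (limma adjusted p = 0.00122). Among 10 markers of T and NK cells, the cells best known to make interferon gamma, 6 were higher and 3 lower. The markers summed to 184 to 195 FPKM in MHCII-hi and 191 to 195 FPKM in MHCII-lo. Most of that sum came from Nkg7 and Gzma, named after their values were seen and both lower in MHCII-hi. Nkg7 had a mean of 96.2 FPKM in MHCII-hi and 117 FPKM in MHCII-lo. The 6 that rose were less abundant, so the sum hides their change. The part of T and NK cells in the Ifng value was not tested.

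Receptor subunits of one pair moved in opposite directions. Ifnar1 had 16.04, 15.81 and 15.58 FPKM in MHCII-hi and 13.72, 13.23 and 13.51 FPKM in MHCII-lo and rose (limma adjusted p = 0.000561). Ifnar2 had 32.76, 31.69 and 34.22 FPKM in MHCII-hi and 35.85, 35.81 and 35.53 FPKM in MHCII-lo and fell (limma adjusted p = 0.0141). Its change was -0.12 on the log2(FPKM + 1) scale, near the median of all tested genes at -0.08. The Ifnar2 call was lost under 4 of 19 alternatives. Among them were median-of-ratios scaling (limma adjusted p = 0.531) and quantile normalization (limma adjusted p = 0.0645). For interferon gamma, Ifngr1 fell to 54.66, 54.00 and 56.69 FPKM in MHCII-hi, against 78.93, 79.53 and 79.64 FPKM in MHCII-lo (limma adjusted p = 2.90e-06), and Ifngr2 did not pass. Ifnlr1, the specific chain of the interferon lambda receptor, had 4.66, 5.41 and 4.98 FPKM in MHCII-hi and 2.05, 1.69 and 1.89 FPKM in MHCII-lo, a change of 1.06 on the log2(FPKM + 1) scale.

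The kinases changed by less than Ifngr1 and Ifnlr1. Jak1 rose, with a mean of 47.4 FPKM in MHCII-hi and 40.02 FPKM in MHCII-lo, Tyk2 fell, with 12.9 FPKM in MHCII-hi and 14.2 FPKM in MHCII-lo, and Jak2 did not pass (limma adjusted p = 0.119). The Tyk2 call (limma adjusted p = 0.0243) was lost without MHCII-hi replicate 2 or 3 or MHCII-lo replicate 1 or 2 (adjusted p between 0.0549 and 0.0682). Stat3 rose by 0.33 and Irf2bp2, a corepressor of Irf2, by 0.16 on the log2(FPKM + 1) scale; the Irf2bp2 call was lost with an equal total (adjusted p = 0.309). Irf8 and Irf5, factors of myeloid cells, fell by 0.34 and 0.27.

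Irf4, a factor of B and plasma cells, had 19.19, 20.56 and 20.26 FPKM in MHCII-hi and 2.02, 2.30 and 2.34 FPKM in MHCII-lo, the largest change of the pathway genes at 2.71 on the log2(FPKM + 1) scale. All 10 B cell markers were higher in MHCII-hi, with a sum of 228 to 235 FPKM in MHCII-hi and 28.8 to 31.8 FPKM in MHCII-lo, and so were all 8 plasma cell markers, of which Irf4 is one. In bulk RNA a greater number of cells of a type and more RNA per cell cannot be told apart.

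Of 12 tested genes that lead to interferon production, 3 were higher, 1 was lower and 8 did not pass. Among all tested genes, 27.2% were higher and 40.5% lower, so 3 of 12 higher is near the general share. Tlr9 and Tlr7, the endosomal sensors of DNA and single-stranded RNA, rose by 0.59 and 0.50 on the log2(FPKM + 1) scale, and Ticam1, the adaptor of Tlr3, rose by 0.44. Cgas, the cytosolic DNA sensor, had 7.85, 7.51 and 7.84 FPKM in MHCII-hi and 11.70, 11.45 and 11.53 FPKM in MHCII-lo and fell (limma adjusted p = 1.34e-05). Plasmacytoid dendritic cells, which make type I interferon through Tlr7, Tlr9 and Irf7, have markers that moved with these genes. Of 9 tested markers 8 were higher, among them Ly6d at 68.2 FPKM in MHCII-hi and 16.9 FPKM in MHCII-lo, and Bst2 was lower. The 10 markers, which include Irf7 and Bst2, summed to 177 to 183 FPKM in MHCII-hi and 102 to 104 FPKM in MHCII-lo, none was at 0 in all libraries, and their part in the result was not tested.

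Among 6 further inhibitors, Socs3 rose by 0.67, Pias1 by 0.28 and Ptpn6, the phosphatase SHP-1, by 0.27 on the log2(FPKM + 1) scale, and Ptpn2 did not pass. Ptpn11 fell by 0.41. Trex1, which degrades cytosolic DNA, had 7.12, 2.25 and 4.02 FPKM in MHCII-hi and 6.21, 9.14 and 13.70 FPKM in MHCII-lo. Its groups overlapped, and its call as lower (limma adjusted p = 0.0496) was lost when MHCII-hi replicate 2 or 3 or MHCII-lo replicate 2 or 3 was left out (adjusted p between 0.103 and 0.143).

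**Figure D5:**
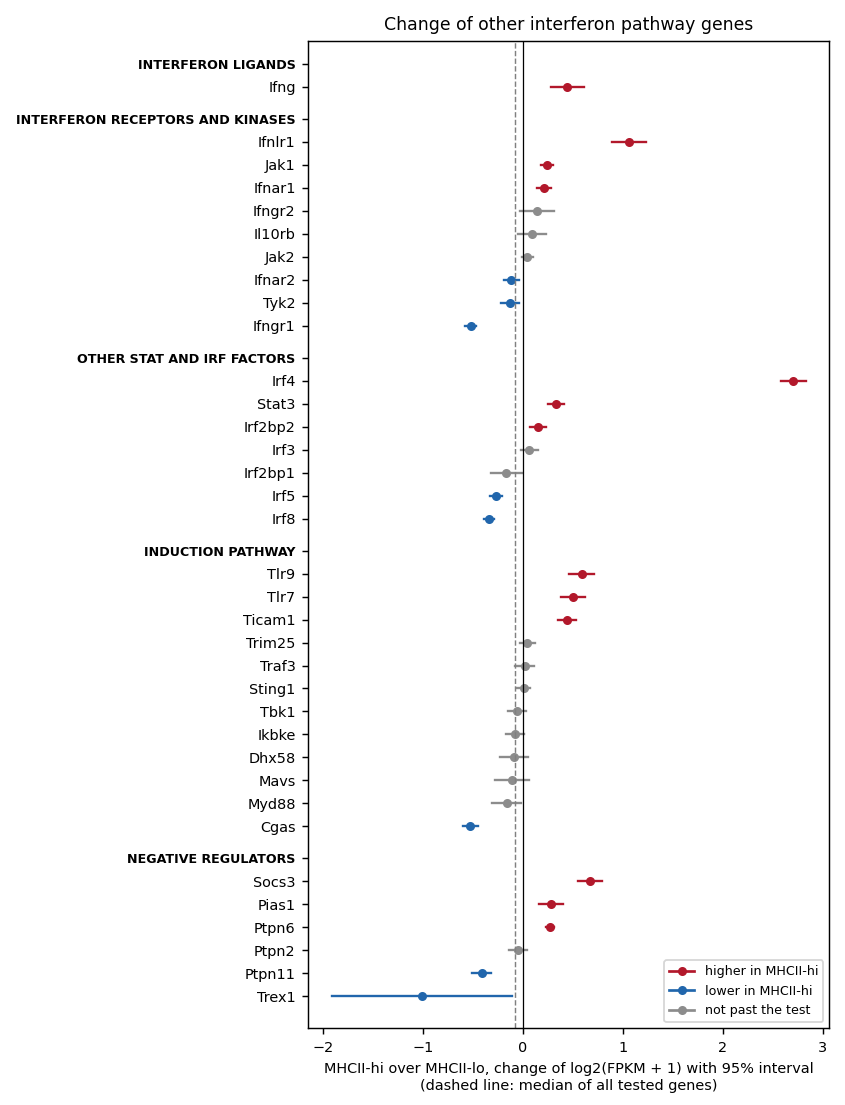
Change on the log2(FPKM + 1) scale, MHCII-hi over MHCII-lo, with its 95% interval, of tested ligands, receptors, kinases, factors, induction genes and inhibitors outside the 46 genes (red higher, blue lower, grey not past the test). Irf4 stands far to the right at 2.71, and Ifnar1 and Ifnar2 lie on opposite sides of 0.

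Of 53 other tested effectors, 26 were higher, 13 were lower and 14 did not pass, against 27.2% higher and 40.5% lower among all genes. The largest rises were Ly6a (Sca-1), an interferon-induced surface marker of stem cells, at 14.88, 13.98 and 14.87 FPKM in MHCII-hi and 5.02, 4.71 and 4.61 FPKM in MHCII-lo, then Ifitm6, Gbp9 and Ifit1bl2, at 0.99, 0.87 and 0.75 on the log2(FPKM + 1) scale. The largest decreases were Ifi209, Ifi211, Ly6c2 and Slfn9, at -0.48, -0.44, -0.43 and -0.35. Ly6c2 is also a monocyte marker, and 5 of the 8 monocyte and macrophage markers fell in MHCII-hi, 2 rose and 1 did not pass. Their sum, most of it from Ly6c2, was 539.8 to 545 FPKM in MHCII-hi and 784 to 807 FPKM in MHCII-lo. The 2 that rose, named after their values were seen, were the complement genes C1qa, at 5.11 FPKM in MHCII-hi and 0.74 FPKM in MHCII-lo, and C1qb, at 5.62 FPKM in MHCII-hi and 0.82 FPKM in MHCII-lo. The part of these cells in the changes was not tested.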

How the data were processed

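Poly(A) RNA of 6 libraries was measured, 3 from MHCII-hi and 3 from MHCII-lo cells. Per the submitters' processing notes, the tools were fastp, HISAT2 and StringTie, with GRCm38 and mm10 listed as builds; no versions or settings are listed. The deposited values were read as FPKM made by the authors, a unit inferred from the values because the file headers name only the library. FPKM gives no counts, so read depth is unknown, no counting interval was computed and no count test was run.

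Of 30803 rows, 67 symbols occurred more than once, and each was represented by its most abundant row; no member was among them. Positions and transcript sequences came from GENCODE M21 (GRCm38), which holds all 46 members, and promoter sequences from RefSeq (GRCm38.p6), which matched 35 members. No protein table was used, so likeness within families was measured on transcripts, as the share of 50-base stretches also found in another gene.

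Genes averaging 1 FPKM or more over the 6 libraries were compared, MHCII-hi over MHCII-lo, as log2(FPKM + 1) values with limma 3.58.1 (R 4.3.3), using its moderated two-sided test with the variance trend on and Benjamini-Hochberg adjustment over all 12295 tested genes at a threshold of 0.05. The fit was tested on simulated data. Alternatives were other pseudocounts, filters and scalings, no variance trend, weights per library, a replicate block, correction for transcript length and GC content, limma's treat test against 1.2-fold, and each library left out. Python 3.11.15, pandas 2.3.3, numpy 2.4.6 and matplotlib 3.10.9 were used.

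The members, families, pathway lists and marker lists were chosen with earlier results of these data known. Within each family, values per library are given for up to 4 called members per direction, the most abundant member, and the member with the smallest p where none was called. Of each pathway list, up to 4 called genes per direction are named, together with the receptor and kinase genes; one listed pathway gene is counted but not reported here by name.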

Additional observations from a re-analysis of the deposited data

How the results depend on the processing

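Of the 44 tested genes, 16 had the same call under each of up to 19 alternatives that tested them (18 for Gbp4, Mx2 and Irgm2): 11 of the 23 called higher, 2 of the 7 called lower and 3 that did not pass. Those 3, Mx2, Irgm2 and Isg15, changed sign under some alternatives. The treat test against 1.2-fold changed most: it left 1594 genes higher and 2128 lower, 11 members higher and 2 lower, 18 pathway genes higher and 7 lower, 3 regulators and 1 GTPase gene higher, and 0 IFIT genes in either direction, 0 OAS genes and 0 IFITM genes lower. With a mean of at least 5 FPKM, where fewer genes were tested, 2210 genes and 15 members were higher, with 0 IFIT and 0 GTPase genes among them. The count of IFIT genes called higher was 1 without a filter, with an equal total and with quantile normalization, and 1 to 2 with each library left out. Removal of the length and GC trend left 0 IFIT genes lower and 4 GTPase genes higher. GTPase genes called higher numbered 6 with median-of-ratios scaling and 5 without immunoglobulin and mitochondrial transcripts. An equal total called 33 pathway genes and 1 regulator lower, and turned Ly6e to -0.029. IFITM genes called higher numbered 1 to 2 and regulators called lower 0 to 1 with each library left out. The cause was not tested for these. Of the called genes of the whole table, 28.9% were higher with an equal total and 50.6% with median-of-ratios scaling, against 40.2% as reported.

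Whether the replicate numbers shared by the groups pair the libraries could not be told. Same-numbered libraries had correlations of 0.0626, 0.0019 and 0.0804 in their deviations from the group means. Libraries with different numbers had correlations from -0.0949 to 0.0251. With 3 libraries per group, these values cannot decide whether same-numbered libraries share a mouse or a sort. With the replicate block, 3222 genes were higher and 4809 lower, 24 members were higher and 9 lower, and 1 regulator, Usp18, was lower. Unknown depth means that no limit from counting could be set, which bears most on genes near 1 FPKM such as Ifit3b and Socs1. The planned comparison of protein sequences was not run because no protein table was used.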
